A study of Mus musculus with 6 samples.

Results

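The genes described here are 10 core genes of the circadian clock, Arntl, Clock, Per1, Per2, Per3, Cry1, Cry2, Nr1d1, Nr1d2 and Dbp, measured by RNA sequencing in a mouse osteoblast cell line exposed to a glucocorticoid with or without extracellular vesicles. They were chosen by name, as the activators, repressors and first output of the clock's feedback loop, from the 21686 genes of the deposited count table, and all 10 had a row in it. Earlier results of these data were known when they were chosen, so the share of them called is a description. The clock is a loop of transcription in which the proteins CLOCK and BMAL1, the latter encoded by Arntl, pair on E-box sequences and switch on the Per and Cry genes, Nr1d1, Nr1d2 and Dbp. PER and CRY proteins then block the CLOCK and BMAL1 pair, while the nuclear receptors REV-ERB alpha and REV-ERB beta, encoded by Nr1d1 and Nr1d2, repress Arntl and Clock. Glucocorticoids are among the hormones that set the clocks of peripheral tissues, bone included, and osteoblasts need clock genes for the normal control of bone formation.

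The cells were MC3T3-E1 Subclone 14, a single clone of a line derived from mouse calvaria, so the libraries describe 1 clone in culture. Control cells received 100 µL of phosphate-buffered saline (PBS). The dexamethasone group received the synthetic glucocorticoid dexamethasone at 10 µM. The third group received dexamethasone at 10 µM together with 100 µg of EPC-EVs, extracellular vesicles released by endothelial progenitor cells. All cells were exposed for 72 hours according to the sample labels, and each of the 3 groups has 2 libraries, called biological replicates in the paper, so every p-value given here rests on 2 libraries per group. The design text of the series instead gives 48 hours and speaks of fibroblasts, a conflict settled here in favour of the sample labels. No group received vesicles without dexamethasone, and only 1 time was sampled, so a change in the level of a clock transcript and a shift in the phase of its rhythm cannot be told apart.

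The libraries of the third group, called EPC-EV libraries from here on, stood apart from the other 4 in several measures before any clock gene was considered. Control libraries had 6126888 and 5146760 counts, and those with dexamethasone 6583735 and 6575094. The EPC-EV libraries had 12864009 and 13182014 counts. Mitochondrially encoded genes took 7.46% and 8.62% of the counts of controls and 5.55% and 5.78% in the dexamethasone libraries, but 0.465% and 0.727% in the EPC-EV libraries. A count of 3, used as the floor below which a gene was treated as near 0, corresponds to between 0.228 and 0.583 CPM, the standard scale of counts by library total, and all 10 clock genes lay above it in every library.

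The difference between groups also followed the base composition of transcripts. The tested genes were divided into 4 equal classes by the GC content of their longest annotated transcript. The median log2 fold change between the EPC-EV and dexamethasone libraries went from -0.65 in the class with the lowest GC content through -0.12 and 0.22 to 0.65 in the class with the highest. For EPC-EV against control libraries the medians were -0.85, -0.21, 0.33 and 1.004. For dexamethasone against control libraries they were -0.22, -0.10, 0.07 and 0.34. The clock genes span that range, since Clock (40.9% GC) and Nr1d2 (41.8%) were in the lowest class, Arntl (48.2%) in the next, Cry1 (51.6%) and Per3 (52.4%) in the one above, and Per2 (54.4%), Cry2 (55.6%), Nr1d1 (56.8%), Per1 (59.4%) and Dbp (61.6%) in the highest. The part of depth, mitochondrial share and GC content in the clock results was not tested, and each comparison is therefore also given with the trend on GC content and transcript length removed. That setting estimates, in each library, how the deviation of genes from their mean log2 CPM depends on GC content and length, and takes this dependence out before the test.

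The osteoblast label was checked against marker genes. All 8 osteoblast markers listed had a row and 4 reached a mean of 10 CPM, namely Runx2, the transcription factor that drives osteoblast differentiation, Col1a1 and Col1a2, which encode type I collagen, and Spp1, which encodes osteopontin. Per length, Spp1 was the most abundant in every library, and the 8 markers together came to 15094 and 16729 CPM in control, 16206 and 16404 CPM under dexamethasone, and 26523 and 20493 CPM in the EPC-EV libraries. That sum joins opposite differences, since Spp1 was called lower (log2 fold change -1.06) and Col1a1 (1.51) and Col1a2 (1.89) were called higher in EPC-EV against dexamethasone libraries in edgeR. Sp7, Alpl, Bglap and Ibsp, the remaining osteoblast markers, were low. Alpl had 11, 16, 5, 0, 17 and 6 counts in the 2 control, 2 dexamethasone and 2 EPC-EV libraries. In the same order Sp7 had 26, 6, 43, 25, 260 and 46 counts and Bglap had 9, 14, 11, 0, 83 and 8, so both were highest in EPC-EV replicate 1, and Ibsp had at most 26. None of these 4 was called in any comparison in which it passed the filter on low counts. Alpl did not pass that filter in EPC-EV against dexamethasone libraries, and Ibsp passed it only in EPC-EV against control libraries. Of 7 endothelial and progenitor markers, 6 had a row and Cd34 was the only one to reach a mean of 10 CPM. Cd34 measured 415 and 377 CPM in control, 363 and 370 CPM under dexamethasone, and 286 and 235 CPM in the EPC-EV libraries. It was called lower against dexamethasone (log2 fold change -0.51) and against control (-0.62) in edgeR, and in neither with the GC content and length trend removed. Without Cd34 the endothelial and progenitor markers summed to 5.42 and 4.004 CPM in control, 2.65 and 3.39 CPM under dexamethasone, and 1.57 and 3.01 CPM in the EPC-EV libraries, with Cdh5, Tek and Prom1 under 3 counts in at least 4 libraries. Of 4 blood cell markers 2 had a row, Cd68 and Adgre1, and they summed to 4.86 CPM or less in every library. The 4 adipocyte markers summed to 7.39 and 2.80 CPM in control, 10.01 and 4.27 CPM under dexamethasone, and 0.707 and 0.154 CPM in the EPC-EV libraries. The most abundant of them, Fabp4, had 44, 14, 65, 15, 9 and 2 counts in the same order and was called lower in edgeR against dexamethasone (log2 fold change -3.76) and against control (-3.53, not called with the GC content and length trend removed). The part of these marker differences in the clock results was not tested. The clock genes are therefore described in cells that express Runx2 and collagen but little Alpl, Bglap or Ibsp, and fewer cells expressing a clock gene cannot be told apart from less of its RNA per cell.

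Levels of the 10 clock genes were compared with each other per length, as mean FPKM (counts per kilobase of exon, scaled to library total) of the deposited table. In the control libraries Nr1d1 was the most abundant clock transcript at 89.7 ± 24.4 FPKM (SD, n = 2), followed by Nr1d2 at 23.6 ± 6.66 FPKM. Per1 at 15.4 ± 3.85 FPKM and Clock at 12.6 ± 1.23 FPKM came next, and their libraries overlapped. Arntl stood below them at 6.35 ± 0.114 FPKM, above the remaining 5 genes. Per2, Per3, Dbp, Cry2 and Cry1 lay between 4.46 and 2.16 FPKM in that order, each overlapping its neighbour.

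Under dexamethasone the order began in the same way, with Nr1d1 at 94.8 ± 8.40 FPKM (SD, n = 2), Nr1d2 at 20.8 ± 1.45 FPKM, Per1 at 16.3 ± 1.45 FPKM and Clock at 10.4 ± 2.30 FPKM, none overlapping the next. Dbp, the output gene of the loop, came next at 6.35 ± 0.353 FPKM, where its libraries overlapped those of Arntl at 6.05 ± 0.723 FPKM, and Arntl overlapped Per3 at 5.25 ± 0.733 FPKM. Cry2, Per2 and Cry1 closed the order at 3.74, 3.08 and 1.25 FPKM, without overlap. In the EPC-EV libraries the lead of Nr1d1 was small, at 27.8 ± 0.755 FPKM against 20.1 ± 5.32 FPKM for Nr1d2, whose libraries overlapped those of Per1 at 16.6 ± 2.95 FPKM. Dbp came next at 10.3 ± 2.29 FPKM, above Per2 at 6.53 ± 1.82 FPKM and Clock at 6.44 ± 0.380 FPKM, which overlapped. Per3, Cry1, Arntl and Cry2 lay between 4.75 and 3.48 FPKM, each overlapping its neighbour. Summed over the 10 genes, the level was 139 and 191 FPKM in control, 160 and 176 FPKM under dexamethasone, and 94.8 and 114 FPKM in the EPC-EV libraries. Without Nr1d1 the other 9 summed to 66.4 and 84.3 FPKM in control, 71.4 and 75 FPKM under dexamethasone, and 67.5 and 85.3 FPKM in the EPC-EV libraries, with the groups overlapping.

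The values of single genes in each library are given next as CPM after TMM scaling, a correction for library composition, with the activators first. Arntl, which encodes BMAL1, the activator without which the loop stops, measured 47.5 and 49.9 CPM in control, 47.9 and 40.4 CPM under dexamethasone, and 32.4 and 22.1 CPM in the EPC-EV libraries. Both EPC-EV libraries lay below all 4 others, while the control and dexamethasone libraries overlapped. Clock, the partner of BMAL1, measured 162 and 190 CPM in control, 117 and 160 CPM under dexamethasone, and 93.0 and 86.1 CPM in the EPC-EV libraries. Its libraries did not overlap between any of the groups, and the control libraries were the highest. Clock was counted 792 times or more in every library.

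The REV-ERB genes differed from each other. Nr1d1, which encodes REV-ERB alpha, the repressor of Arntl, measured 224 and 339 CPM in control, 265 and 300 CPM under dexamethasone, and 84.8 and 88.7 CPM in the EPC-EV libraries. Both EPC-EV libraries lay far below the other 4. In spite of their greater depth their raw counts were lower too, at 1080 and 1150 against 1366, 1693, 1800 and 2038. Nr1d2, which encodes the related REV-ERB beta, measured 103 and 158 CPM in control, 104 and 115 CPM under dexamethasone, and 89.1 and 131 CPM in the EPC-EV libraries. All 3 groups overlapped for Nr1d2.

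Among the Per genes, whose proteins form the repressing complex of the loop, Per2 was the only one with groups apart. Per2 measured 26.9 and 26.2 CPM in control, 16.4 and 18.6 CPM under dexamethasone, and 31.0 and 46.5 CPM in the EPC-EV libraries. The dexamethasone libraries were the lowest and the EPC-EV libraries the highest, with no overlap. Per1, the Per gene that glucocorticoids are best known to induce, measured 71.8 and 105 CPM in control, 83.2 and 94.3 CPM under dexamethasone, and 82.6 and 107 CPM in the EPC-EV libraries. Per3, the Per gene that the loop can do without, measured 24.8 and 52.9 CPM in control, 53.8 and 44.1 CPM under dexamethasone, and 55.7 and 36.8 CPM in the EPC-EV libraries. All groups overlapped for Per1 and for Per3, and control replicate 1 was the lowest library for both.

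The Cry genes encode the direct inhibitors of CLOCK and BMAL1. Cry1 had few counts, at 61 and 23 counts in control, 42 and 13 under dexamethasone, and 135 and 270 in the EPC-EV libraries, which corresponds to 10.0 and 4.61 CPM, 6.19 and 1.92 CPM, and 10.6 and 20.8 CPM. The EPC-EV libraries were the highest and the control and dexamethasone libraries overlapped, but EPC-EV replicate 1 was only just above control replicate 1. Cry2 measured 26.0 and 17.0 CPM in control, 24.0 and 21.8 CPM under dexamethasone, and 18.3 and 26.3 CPM in the EPC-EV libraries, with all groups overlapping. Dbp, a transcription factor gene driven directly by CLOCK and BMAL1, measured 8.05 and 13.4 CPM in control, 19.1 and 17.7 CPM under dexamethasone, and 26.3 and 36.3 CPM in the EPC-EV libraries. Dbp was higher at each step, without overlap between any groups.

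**Figure D1:**
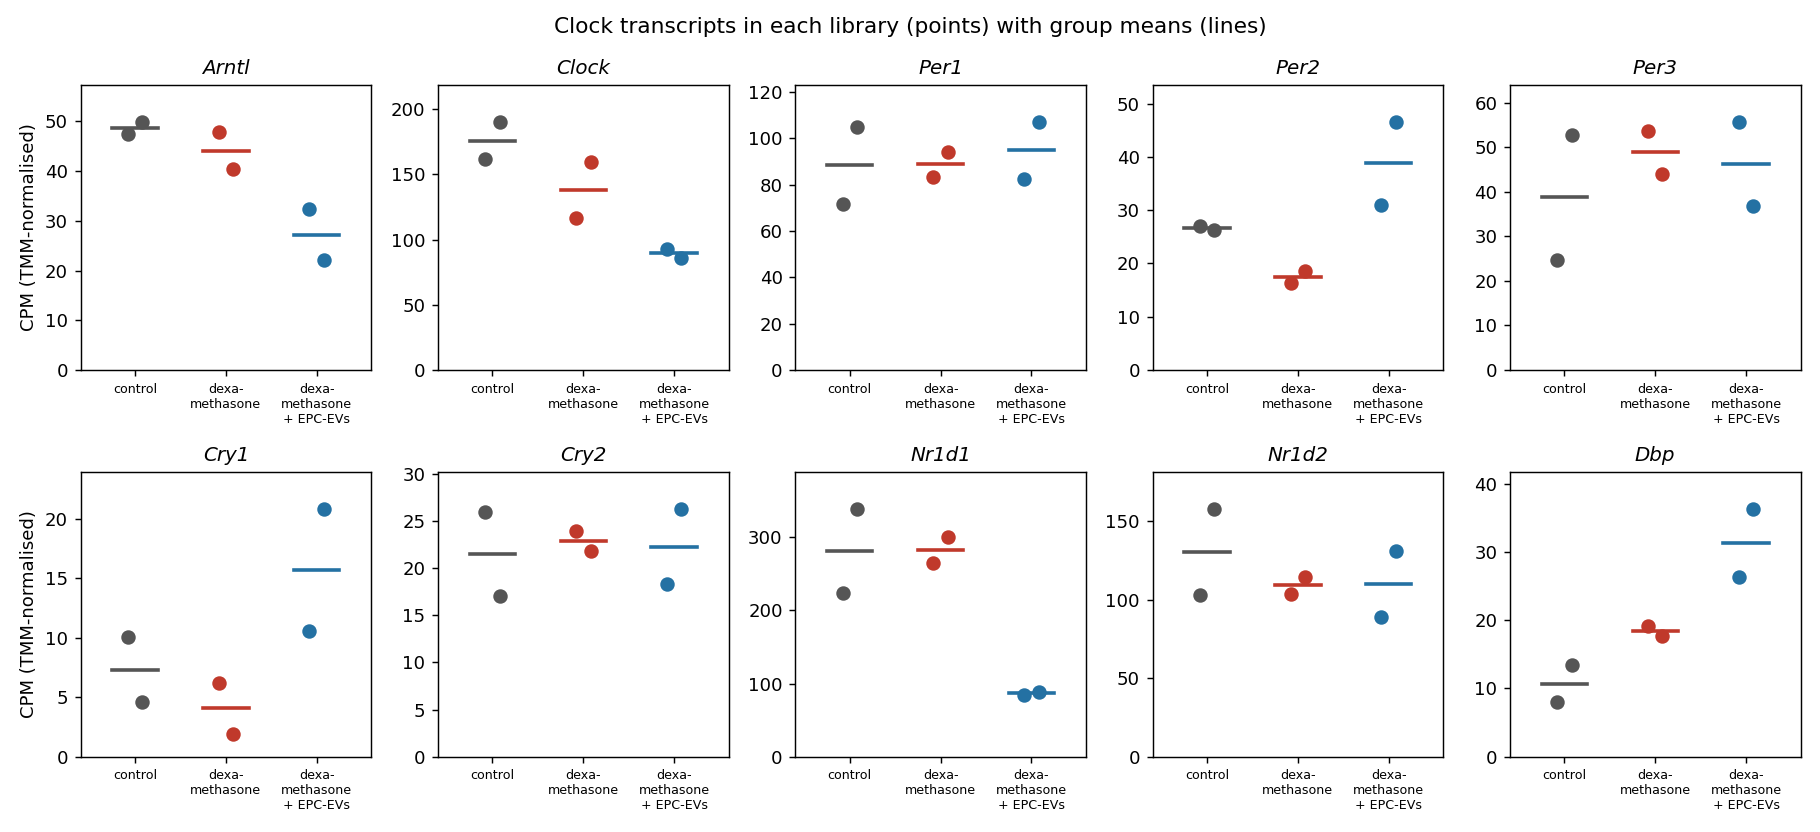
Each panel shows 1 clock gene, with TMM-normalised CPM on the vertical axis, starting at 0, and the 3 groups on the horizontal axis; points are libraries and lines are group means. The EPC-EV libraries lie below all others for Arntl, Clock and Nr1d1 and above all others for Per2, Cry1 and Dbp.

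The comparison of dexamethasone with control libraries asks what the glucocorticoid alone did to the clock genes. None of the 10 clock genes passed the test there. In edgeR, with Benjamini-Hochberg adjustment over all 12879 genes tested and a threshold of adjusted p under 0.05, 0 of the 10 clock genes were called, against 7 of all genes (0.0544%). At unadjusted p under 0.05 the count was also 0 of 10, against 10.9% of all genes, and none had an unadjusted p under 0.05 in DESeq2. DESeq2 gave an adjusted p to 6 of the 10 and called 0 of these, against 2.7% of all genes with an adjusted p and 0.66% of all genes with a count. Its filter on mean count left Per2, Cry1, Cry2 and Dbp without an adjusted p. The libraries did not overlap for 3 of 10 clock genes, Dbp being higher and Clock and Per2 lower under dexamethasone, and 43.9% of all genes were without overlap, so this share is near the background. The median log2 fold change was -0.07 over the clock genes and 0.01 over all genes tested.

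The largest differences of the clock genes under dexamethasone were those of Cry1, Dbp and Per2. Cry1, from 7.31 ± 3.83 CPM in control to 4.05 ± 3.02 CPM in dexamethasone libraries (SD, n = 2), had a log2 fold change of -0.86 ± 0.72 (SE; edgeR, Benjamini-Hochberg adjusted p = 0.701). Dbp, from 10.7 ± 3.79 to 18.4 ± 1.04 CPM, had a log2 fold change of 0.78 ± 0.41 (adjusted p = 0.515 in edgeR, Benjamini-Hochberg), with both dexamethasone libraries above both control libraries. Per2, from 26.6 ± 0.504 to 17.5 ± 1.57 CPM, had a log2 fold change of -0.61 ± 0.31 (adjusted p = 0.497 in edgeR, Benjamini-Hochberg), with both dexamethasone libraries below both control libraries. Per1 and Nr1d1 had the smallest log2 fold changes, at 0.000743 ± 0.22 and -0.000441 ± 0.20. Those of Per3, Cry2, Arntl, Nr1d2 and Clock were 0.33, 0.08, -0.15, -0.26 and -0.35. With 1 library left out at a time, values ranged from -1.92 to -0.19 for Cry1, from 0.46 to 1.20 for Dbp and from -0.11 to 0.99 for Per3, with no call. Per1, Per3, Cry2, Nr1d1 and Nr1d2 each changed sign without some 1 library. Without control replicate 1, and with the lone control library assumed to vary like the dexamethasone group, Clock (-0.46) and Nr1d2 (-0.53) passed the test, and the number of all genes called went from 7 to 2200. These 2 calls therefore depended on leaving out that library.

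The comparison of EPC-EV with dexamethasone libraries asks what the vesicles added to the glucocorticoid. The clock genes split in it. Nr1d1, Clock and Arntl fell and Per2, Cry1 and Dbp rose, while Per1, Per3, Cry2 and Nr1d2 did not pass the test. By the same rule in edgeR, 6 of the 10 clock genes were called, against 39.8% of all 13556 genes tested. By direction, 3 were called higher, against 20.9% of all genes, and 3 were called lower, against 18.9%. The same 6 genes were those whose libraries did not overlap, against 72.4% of all genes, a share that the clock genes did not exceed. The median log2 fold change was -0.03 over the clock genes and 0.01 over all genes.

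Nr1d1 showed the largest fall, from 283 ± 24.9 CPM in the dexamethasone libraries to 86.7 ± 2.76 CPM in the EPC-EV libraries (SD, n = 2). This is a decrease by a factor of 3.30, with a log2 fold change of -1.72 ± 0.14 (SE; edgeR, Benjamini-Hochberg adjusted p = 5.41e-06), and both EPC-EV libraries were below both dexamethasone libraries. Nr1d1 kept its call without any 1 library, with log2 fold changes from -1.80 to -1.62. Of the activators, Clock fell from 138 ± 30.6 to 89.5 ± 4.87 CPM, by a factor of 1.57, with both EPC-EV libraries lower (log2 fold change -0.65 ± 0.17, adjusted p = 0.0108 in edgeR, Benjamini-Hochberg). Arntl fell from 44.1 ± 5.30 to 27.2 ± 7.28 CPM, by a factor of 1.64, again with both EPC-EV libraries lower (log2 fold change -0.72 ± 0.24, adjusted p = 0.0317 in edgeR, Benjamini-Hochberg). The call of Clock was lost without dexamethasone replicate 2 (-0.39) and with limma on log2(FPKM + 1) (-0.60), and with the GC content and length trend removed it was lost and the sign turned (0.13). That of Arntl was lost without dexamethasone replicate 1 (-0.58) or 2 (-0.83), without EPC-EV replicate 2 (-0.45), with limma (-0.64) and with all 6 libraries in 1 fit (-0.70).

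Of the repressors, Per2 rose from 17.5 ± 1.57 to 38.8 ± 10.96 CPM (SD, n = 2), 2.19-fold, with both EPC-EV libraries above both dexamethasone libraries (log2 fold change 1.13 ± 0.26, adjusted p = 0.00514 in edgeR, Benjamini-Hochberg). Cry1 rose from 4.05 ± 3.02 to 15.7 ± 7.23 CPM, 3.84-fold, also in both libraries (log2 fold change 1.94 ± 0.54, adjusted p = 0.0136 in edgeR, Benjamini-Hochberg). Cry1 had the widest error of the 10, and its 2 dexamethasone libraries differed from each other by more than its 2 EPC-EV libraries did in proportion. Per2 lost its call without dexamethasone replicate 1 (1.05), without EPC-EV replicate 2 (0.83) and with the GC content and length trend removed (0.73). Cry1 lost its call without dexamethasone replicate 2 (1.34) and without EPC-EV replicate 2 (1.38). Without dexamethasone replicate 1 the value for Cry1 was 3.02, so which library was left out moved it by more than its standard error.

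Dbp, the output gene, rose from 18.4 ± 1.04 to 31.3 ± 7.09 CPM, 1.68-fold, with both EPC-EV libraries higher (log2 fold change 0.75 ± 0.26, adjusted p = 0.0359 in edgeR, Benjamini-Hochberg). It was the call closest to the threshold of the 6. Dbp lost it without dexamethasone replicate 1 (0.82) or 2 (0.70), without EPC-EV replicate 2 (0.51), with DESeq2 (0.74), with limma (0.61), with the GC content and length trend removed, which turned its sign (-0.30), with all 6 libraries in 1 fit (0.77) and with all libraries thinned to the depth of the smallest (0.58). For the 4 clock genes that did not pass, the log2 fold changes were 0.08 ± 0.17 for Per1, -0.10 ± 0.23 for Per3, -0.06 ± 0.27 for Cry2 and -0.01 ± 0.19 for Nr1d2, with adjusted p from 0.752 to 0.986 in edgeR (Benjamini-Hochberg). Each of these 4 changed sign without some 1 library, and Per1 (-0.70) and Nr1d2 (0.54) were called with the GC content and length trend removed.

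The comparison of EPC-EV with control libraries gives the distance of the combined treatment from cells given PBS. It shares the EPC-EV libraries with the comparison above, so its values stand beside those and are not separate evidence. Nr1d1, Clock and Arntl fell and Dbp rose, while the remaining 6 clock genes did not pass the test. In edgeR 4 of the 10 clock genes were called, against 36.4% of all 13511 genes tested, a share near the background. Higher calls numbered 1, against 19.1% of all genes, and lower calls numbered 3, against 17.2%. Libraries did not overlap for 6 of 10 clock genes, with Per2, Cry1 and Dbp higher and Nr1d1, Clock and Arntl lower, against 73.0% of all genes. The median log2 fold change was 0.06 over the clock genes and 0.02 over all genes.

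Nr1d1 fell by a factor of 3.29 from the control libraries, at 282 ± 81.0 CPM (SD, n = 2), with both EPC-EV libraries lower (log2 fold change -1.72 ± 0.23, adjusted p = 0.00120 in edgeR, Benjamini-Hochberg). It kept the call without any 1 library, with values from -1.95 to -1.37. Clock fell by a factor of 1.99 from 176 ± 20.1 CPM, in both libraries (log2 fold change -0.99 ± 0.19, adjusted p = 0.00500 in edgeR, Benjamini-Hochberg), and kept its call without any 1 library but lost it with the GC content and length trend removed (-0.09). Arntl fell by a factor of 1.81 from 48.7 ± 1.68 CPM, in both libraries (log2 fold change -0.86 ± 0.28, adjusted p = 0.0398 in edgeR, Benjamini-Hochberg). Its call was lost without control replicate 2 (-0.80), without EPC-EV replicate 2 (-0.60) and with limma (-0.70). Dbp rose 2.89-fold from 10.7 ± 3.79 CPM, in both libraries (log2 fold change 1.53 ± 0.37, adjusted p = 0.0138 in edgeR, Benjamini-Hochberg), and lost its call without EPC-EV replicate 2 (1.28) and with the GC content and length trend removed, which turned its sign (-0.15).

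Per2 and Cry1 were higher in both EPC-EV libraries than in either control library but did not pass. For Per2 the log2 fold change was 0.53 ± 0.29 (adjusted p = 0.194 in edgeR, Benjamini-Hochberg), and for Cry1 it was 1.08 ± 0.53 (adjusted p = 0.143 in edgeR, Benjamini-Hochberg). Cry1 passed when control replicate 1, its higher control library, was left out (1.79). The log2 fold changes of Per1, Per3, Cry2 and Nr1d2 were 0.08, 0.23, 0.03 and -0.26, and each changed sign without some 1 library, while Per1 (-1.21) was called with the GC content and length trend removed.

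The clock genes were also read beside genes of like GC content. In EPC-EV against dexamethasone libraries, Clock moved by -0.65 on the log2 scale, the median of its GC class being -0.65, and Dbp moved by 0.75, the median of its class being 0.65. Nr1d1, in the same class as Dbp, moved by -1.72, which is 2.38 below the class median. Cry1 lay 1.72 above the median of its class and Arntl 0.60 below. Nr1d2, with a difference near 0, lay 0.64 above its class median, while Cry2 lay 0.71 below, Per1 0.57 below and Per3 0.32 below. Per2 lay 0.48 above.

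With the trend on GC content and length removed, 5 of the 10 clock genes were called in EPC-EV against dexamethasone libraries, against 31.7% of all genes. Nr1d1 (-2.34 ± 0.15), Arntl (-0.70 ± 0.23) and Cry1 (1.72 ± 0.53) kept their direction and call. Per2 (0.73 ± 0.27) kept its direction and lost its call. Clock (0.13 ± 0.17) and Dbp (-0.30 ± 0.26) lost the call and turned in sign. Per1 (-0.70 ± 0.18) was called lower and Nr1d2 (0.54 ± 0.18) was called higher, neither of which had passed the test without the removal.

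In EPC-EV against control libraries, 3 of 10 clock genes were called with the trend removed, against 26.5% of all genes, all of them lower. They were Nr1d1 (-2.82 ± 0.31), Arntl (-0.85 ± 0.27) and Per1 (-1.21 ± 0.32). Clock (-0.09 ± 0.18) lost its call and Dbp (-0.15 ± 0.44) lost it and turned in sign. Of the genes called in neither fit, Per2 (-0.09), Per3 (-0.20), Cry2 (-0.78) and Nr1d2 (0.47) also turned in sign. In dexamethasone against control libraries, 0 of 10 were called with the trend removed, as without it, but values moved. Dbp went from 0.78 to 0.15 ± 0.45, Per1 to -0.50 ± 0.26 and Nr1d1 to -0.45 ± 0.25, while Cry1 (-0.997) and Per2 (-0.82) had the largest differences, and Cry2 turned to -0.21. Nr1d1 and Arntl were thus the only clock genes called in the same direction in both EPC-EV comparisons with and without the removal.

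**Figure D2:**
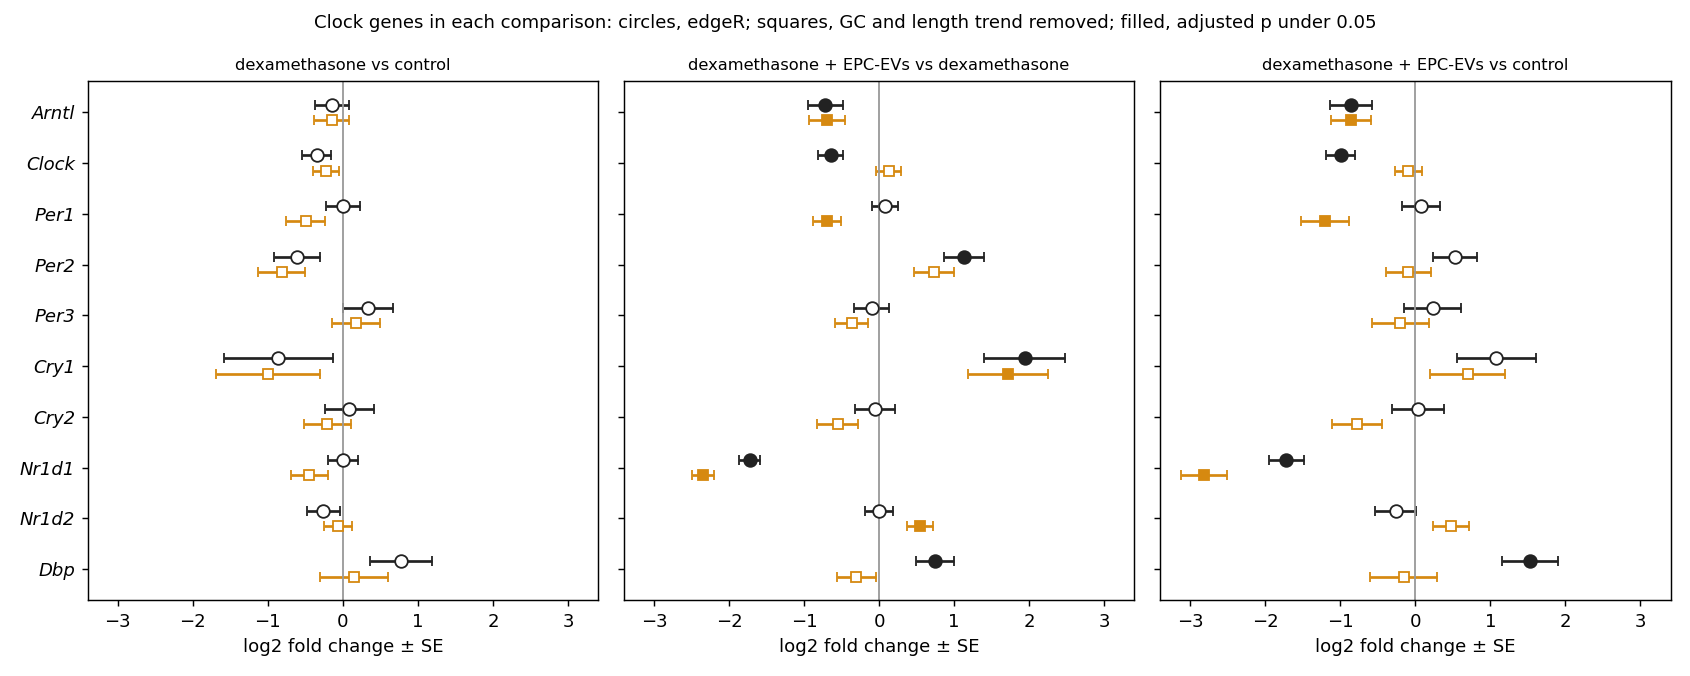
Horizontal axes give the log2 fold change with its SE for each of the 10 clock genes in each comparison; circles are the edgeR fit, squares the fit with the GC content and length trend removed, and filled symbols have an adjusted p under 0.05. Nr1d1 and Arntl are filled below 0 by either fit in both EPC-EV comparisons, and no symbol is filled for dexamethasone against control.

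Ratios of 2 clock genes counted in the same library do not depend on that library's depth or scaling, though they do depend on transcript length and GC content. Nr1d1 had 2.18 and 2.15 counts per count of Nr1d2 in control, 2.55 and 2.62 under dexamethasone, and 0.952 and 0.677 in the EPC-EV libraries. The ratio was lower in the EPC-EV libraries than in all others. Per length, as a ratio of FPKM, it was 3.84 and 3.78 in control, 4.49 and 4.61 under dexamethasone, and 1.67 and 1.19 in the EPC-EV libraries, so Nr1d1 stayed above Nr1d2 in all 6. Dbp, which is active opposite in phase to Arntl in a running clock, had 0.170 and 0.269 counts per count of Arntl in control, 0.400 and 0.438 under dexamethasone, and 0.813 and 1.65 in the EPC-EV libraries. This ratio was higher in each successive group, without overlap.

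Per2 had 0.568 and 0.526 counts per count of Arntl in control, 0.342 and 0.460 under dexamethasone, and 0.959 and 2.11 in the EPC-EV libraries. The dexamethasone libraries were the lowest and the EPC-EV libraries the highest, without overlap. Cry1 had 0.386 and 0.271 counts per count of Cry2 in control, 0.258 and 0.0878 under dexamethasone, and 0.579 and 0.792 in the EPC-EV libraries, again without overlap between groups. Per2 had 0.375 and 0.2495 counts per count of Per1 in control, 0.197 and 0.197 under dexamethasone, and 0.376 and 0.434 in the EPC-EV libraries. Arntl had between 0.253 and 0.410 counts per count of Clock over all 6 libraries, with the groups overlapping, and both ends of that range were dexamethasone libraries. No test was run on these ratios.

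Per2 could also be read at the level of its transcripts, because the deposited transcript table covers chromosome 1. The full-length Per2 transcript, ENSMUST00000069620.9, has 23 exons and spans chr1:91415982-91459324 on the minus strand. It measured 3.13 and 2.44 FPKM in control, 2.25 and 2.43 FPKM under dexamethasone, and 4.20 and 6.42 FPKM in the EPC-EV libraries. The EPC-EV libraries were the highest, and dexamethasone replicate 2 lay only just below control replicate 2. A short Per2 transcript of 3 exons, ENSMUST00000185298.1, was 0 in every library but dexamethasone replicate 2, at 0.195 FPKM.

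In limma on log2(FPKM + 1) with Benjamini-Hochberg adjustment over the transcripts of chromosome 1, the full-length Per2 transcript was not called in any comparison. Its log2 fold change was 0.89 ± 0.34 for EPC-EV against dexamethasone libraries (unadjusted p = 0.0538, adjusted p = 0.162), where 0.0225% of all tested transcripts were called. It was 0.72 ± 0.37 against control libraries (adjusted p = 0.252 in limma), where 0.115% were called. For dexamethasone against control it was -0.17 ± 0.48 (adjusted p = 0.995 in limma), where 0.0582% were called. At unadjusted p under 0.05 the count was also 0 in each comparison, against 32.1% of all tested transcripts for EPC-EV against dexamethasone, 35.6% for EPC-EV against control and 11.2% for dexamethasone against control.

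The wider clock was described with a list of further genes, of which 25 or 26 passed the filter on low counts, depending on the comparison. This list and that of glucocorticoid targets below were chosen with earlier results of these data known. The shares of them called are therefore a description. Under dexamethasone alone 0 of 25 were called in edgeR, against 0.0544% of all genes, and 3 (Bhlhe40, Bhlhe41 and Tef) had an unadjusted p under 0.05, against 10.9%. DESeq2 called 1, Bhlhe41, of 14 with an adjusted p, against 2.7% of all genes with one. In EPC-EV against dexamethasone libraries 15 of 26 were called, against 39.8% of all genes, with 8 up and 7 down and -0.01 as the median log2 fold change of the list. Against control libraries 12 of 25 were called, against 36.4% of all genes, with 5 up and 7 down and a median of -0.20. With the GC content and length trend removed, 12 of the 15 and 6 of the 12 kept their direction and call, against 58.5% and 51.1% of all genes called.

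Genes of this list that share a role with the 10 clock genes moved as follows. Arntl2, which encodes a second partner for CLOCK, measured 49.1 and 55.1 CPM in control, 46.8 and 45.7 CPM under dexamethasone, and 24.5 and 18.4 CPM in the EPC-EV libraries. Like Arntl it was lowest in the EPC-EV libraries, where it fell against dexamethasone (log2 fold change -1.13 ± 0.22, adjusted p = 0.00208 in edgeR, Benjamini-Hochberg) and kept that call with the trend removed (-0.74). Rora, which encodes a receptor that competes with the REV-ERBs and activates Arntl, measured 73.8 and 94.7 CPM in control, 76.4 and 92.8 CPM under dexamethasone, and 63.6 and 73.0 CPM in the EPC-EV libraries. Its EPC-EV libraries were the lowest by a small margin, and it was not called in any comparison. With the trend removed, its log2 fold change turned from -0.33 to 0.44 ± 0.16 against dexamethasone and from -0.32 to 0.59 ± 0.20 against control, again not called. Nr1d1 had 3.04 and 3.58 counts per count of Rora in control, 3.47 and 3.24 under dexamethasone, and 1.33 and 1.21 in the EPC-EV libraries. Rorb and Hlf were near the floor, and Npas2, a relative of Clock, was not among the genes of the deposited count table.

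Tef, which encodes a factor that binds the D-box as DBP does, measured 45.0 and 49.3 CPM in control, 68.0 and 68.8 CPM under dexamethasone, and 139 and 153 CPM in the EPC-EV libraries. Like Dbp it was higher at each step, without overlap between groups. Nfil3, which encodes the repressor that competes at the D-box, measured 22.3 and 13.01 CPM in control, 15.0 and 19.9 CPM under dexamethasone, and 7.62 and 6.25 CPM in the EPC-EV libraries, the lowest of the 6. In EPC-EV against dexamethasone libraries Tef rose (log2 fold change 1.08 ± 0.15, adjusted p = 0.000176 in edgeR, Benjamini-Hochberg) and Nfil3 fell (-1.35 ± 0.35, adjusted p = 0.00946). With the trend removed both were still called, at 0.75 for Tef and -1.82 for Nfil3, unlike Dbp. Tef had 2.02 and 3.79 counts per count of Nfil3 in control, 4.53 and 3.46 under dexamethasone, and 18.3 and 24.5 in the EPC-EV libraries.

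Of the E-box repressors outside the Per and Cry families, Ciart, whose protein binds and inhibits BMAL1, had 22 and 4 counts in control, 29 and 9 under dexamethasone, and 115 and 146 in the EPC-EV libraries. It rose against dexamethasone (log2 fold change 1.84 ± 0.55, adjusted p = 0.0204 in edgeR, Benjamini-Hochberg), at counts as low as those of Cry1. Bhlhe41 measured 145 and 222 CPM in control, 109 and 108 CPM under dexamethasone, and 68.7 and 65.9 CPM in the EPC-EV libraries. It was lower at each step without overlap, and fell in EPC-EV against dexamethasone libraries (log2 fold change -0.71 ± 0.15, adjusted p = 0.00299 in edgeR, Benjamini-Hochberg). Bhlhe40 measured 219 and 133 CPM in control, 292 and 250 CPM under dexamethasone, and 171 and 140 CPM in the EPC-EV libraries. It was highest under dexamethasone alone and fell in the EPC-EV libraries (log2 fold change -0.82 ± 0.15, adjusted p = 0.000968 in edgeR, Benjamini-Hochberg). Of 5 listed outputs of the clock, 4 were called in EPC-EV against dexamethasone libraries, against 39.8% of all genes. Wee1, a cell cycle kinase gene driven by the clock, rose from 16.2 and 23.4 CPM in the dexamethasone libraries to 47.1 and 48.3 CPM in the EPC-EV libraries (adjusted p = 0.00161 in edgeR, Benjamini-Hochberg). Tspan4 rose from 15.8 CPM in each dexamethasone library to 71.0 and 63.5 CPM (log2 fold change 2.07 ± 0.21, adjusted p = 2.10e-05 in edgeR, Benjamini-Hochberg), and like Wee1 (1.16) it kept its call with the trend removed (1.31). Por was called higher (0.52) and Nampt, which encodes an enzyme of NAD synthesis, was called lower (-0.60), and both lost the call and turned in sign with the trend removed (-0.23 and 0.10). Por also lost its call without dexamethasone replicate 1 or 2, without EPC-EV replicate 1 and with all 6 libraries in 1 fit, and Nampt without dexamethasone replicate 1 or 2. Usp2 (-0.58 ± 0.31) was called, as lower, only with the trend removed (-0.93). Without dexamethasone replicate 2 the calls of Ciart and Nfil3 were lost, and without EPC-EV replicate 2 that of Ciart. Ciart was also not called with all 6 libraries in 1 fit, and it did not pass a filter of at least 10 counts in every library.

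As context for the glucocorticoid, its receptor gene Nr3c1 and 10 genes that the receptor is known to induce were listed, of which 10 in all were tested. In dexamethasone against control libraries 0 of these 10 were called in edgeR, against 0.0544% of all genes. An unadjusted p under 0.05 was found for 3, against 10.9% of all genes, and all 3 had lower values under dexamethasone, at log2 fold changes of -0.40 for Nr3c1, -0.44 for Dusp1 and -0.53 for Errfi1. In EPC-EV against dexamethasone libraries 5 of 10 were called, against 39.8% of all genes, with Sgk1, Dusp1, Fkbp5 and Tsc22d3 higher and Mt2 lower. With the trend on GC content and length removed, Fkbp5 (0.52) lost its call and the other 4 kept theirs. Tsc22d3, which encodes the glucocorticoid-induced protein GILZ, measured 36.1 and 24.8 CPM in control, 25.9 and 31.7 CPM under dexamethasone, and 93.5 and 214 CPM in the EPC-EV libraries. Its EPC-EV libraries were the highest and the control and dexamethasone libraries overlapped, as they did for Per1. Fkbp5, which encodes a chaperone of the receptor, measured 19.1 and 24.0 CPM, 29.9 and 22.4 CPM, and 47.0 and 40.9 CPM in the control, dexamethasone and EPC-EV libraries. It too was highest in the EPC-EV libraries, with the other 4 libraries overlapping between groups. Mt2 went the other way against dexamethasone, at 178 and 55.1 CPM, 238 and 169 CPM, and 39.1 and 63.55 CPM in the same order. In EPC-EV against control libraries 5 of 10 were called in edgeR, against 36.4% of all genes. Dusp1, Fkbp5 and Tsc22d3 were higher there, and Nr3c1 (-0.62) and Errfi1 (-0.85) were lower. With the trend removed, Fkbp5 and Nr3c1 lost that call and Mt2 (-1.85) gained one.

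For Arntl and Dbp, the genes whose pattern over the 6 libraries was most alike were found among 9218 genes whose mean reached 10 CPM. The 3 closest to Arntl were Arhgap26, Sntb1 and Csgalnact1, with Pearson's r of log2 CPM of 0.996, 0.994 and 0.994 over the 6 libraries, and 179 genes had an r above 0.95. The 3 closest to Dbp were Fbxo6, Vapa and Clasrp, with r of 0.992, 0.988 and 0.987, and 75 genes had an r above 0.95. These values are a description, since all genes share the libraries, their depth and the trend on GC content.

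The annotation (GENCODE vM21 on GRCm38) places each clock gene apart from the others, and 4 of them share exon bases with a gene on the opposite strand. Nr1d1 (ENSMUSG00000020889.11, chr11:98767932-98775333, minus strand) shares 263 exon bases with Thra, which encodes a thyroid hormone receptor. Thra had 503, 324, 593, 533, 1101 and 1188 counts in the 2 control, 2 dexamethasone and 2 EPC-EV libraries, so Thra had slightly more counts than Nr1d1 in the EPC-EV libraries and far fewer in the others. Dbp (ENSMUSG00000059824.12, chr7:45705088-45710203, plus strand) shares 539 exon bases with Sphk2, which had 108, 63, 142, 97, 552 and 552 counts in the same order. Like Dbp, Sphk2 was highest in the EPC-EV libraries. Cry2 (ENSMUSG00000068742.11, chr2:92403646-92434043, minus strand) shares 295 exon bases with D930015M05Rik, which had at most 2 counts, and Arntl (ENSMUSG00000055116.8, chr7:113207465-113314126, plus strand) shares 33 with Gm45355, which had no row. The paper describes a strand-specific setting for the alignment, but whether the counting kept the strands apart is not stated, so it is not known whether reads in the shared bases were assigned by strand.

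The remaining clock genes share no exon bases with another gene. They are Clock (ENSMUSG00000029238.11, chr5:76209868-76304792, minus strand), Nr1d2 (ENSMUSG00000021775.11, chr14:18204054-18239127, minus strand), Per1 (ENSMUSG00000020893.17, chr11:69095217-69109960, plus strand), Per2 (ENSMUSG00000055866.9, chr1:91415982-91459324, minus strand), Per3 (ENSMUSG00000028957.12, chr4:151003652-151044665, minus strand) and Cry1 (ENSMUSG00000020038.10, chr10:85131700-85185064, minus strand).

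The promoters of the clock genes were searched for the letters through which the loop is known to act on itself. Windows from 250 bases before to 50 bases after a start site, from RefSeq on GRCm38.p6, were matched for 9 of the 10 genes, 13 windows in all, and not for Per2. Searched on both strands were the E-box CACGTG, bound by CLOCK and BMAL1, the D-box as TTATGTAA or TTACGTAA, bound by DBP and TEF, the motif AGGTCA, bound by REV-ERB receptors, and AGAACA, a core of glucocorticoid receptor sites. Of all 32851 windows, 7.15% held the E-box, 1.06% a D-box, 16.3% AGGTCA and 19.0% AGAACA. Among the clock genes, the E-box was in 1 window of Per1 and in that of Cry1, and the D-box in that of Per3. AGGTCA or its reverse complement TGACCT was in 1 window each of Per1, Arntl, Clock and Nr1d2. AGAACA was in none of the 13 windows. A match is a description of the letters, and its absence from a window says nothing about the factor.

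The 3 sequences shown are those of the repressor genes with an E-box or D-box in the 250 bases before the start. Cry1, which rose in EPC-EV against dexamethasone libraries, can thus be read beside Per1 and Per3, which did not pass that test. With the GC content and length trend removed, Per1 was called lower in that comparison (-0.70). Capitals mark the matches. Cry1 (chr10:85185055-85185304, minus strand) holds CACGTG 60 bases before its start. Per1 (chr11:69098699-69098948, plus strand) holds CACGTG 166 bases and TGACCT 137 bases before the start shown. The other window of Per1 (chr11:69099902-69100201), at another start, held none of the motifs. Per3 (chr4:151044666-151044915, minus strand) holds TTATGTAA at 205 and at 158 bases before its start.
Cry1: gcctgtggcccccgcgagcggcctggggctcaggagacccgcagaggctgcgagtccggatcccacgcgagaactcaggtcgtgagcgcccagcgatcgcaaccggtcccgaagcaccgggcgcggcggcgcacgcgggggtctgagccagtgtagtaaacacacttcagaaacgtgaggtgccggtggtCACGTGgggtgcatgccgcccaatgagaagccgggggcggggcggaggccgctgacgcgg
Per1: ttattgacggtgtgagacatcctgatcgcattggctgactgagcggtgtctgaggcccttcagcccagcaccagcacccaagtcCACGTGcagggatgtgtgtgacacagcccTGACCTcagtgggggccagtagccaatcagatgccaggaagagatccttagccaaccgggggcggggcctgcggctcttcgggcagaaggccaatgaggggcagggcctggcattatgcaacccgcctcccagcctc
Per3: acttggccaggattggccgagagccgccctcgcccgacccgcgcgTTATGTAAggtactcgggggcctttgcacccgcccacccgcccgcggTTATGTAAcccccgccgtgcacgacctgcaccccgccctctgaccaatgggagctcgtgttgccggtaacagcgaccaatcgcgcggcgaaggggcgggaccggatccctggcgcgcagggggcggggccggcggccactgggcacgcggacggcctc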

How the data were processed

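The deposited gene table gives, for each library, read counts that the authors made with HTSeq 0.6.1 on GRCm38 and gene FPKM, which the authors describe as sums over transcripts. For the 14018 genes with at least 10 counts in at least 2 libraries, the deposited FPKM nevertheless equal the counts divided by exon length and library total to within 0.1%. The deposited transcript table gives FPKM for transcripts of chromosome 1. Libraries were grouped by their labels. For each comparison the counts of its 4 libraries were filtered with filterByExpr, scaled by TMM and tested in edgeR 4.0.16 with the robust quasi-likelihood test (two-sided), with Benjamini-Hochberg adjustment over all genes tested and calls at adjusted p under 0.05. SE were computed from the test statistic. DESeq2 1.42.0, limma 3.58.1, other filters and scalings, thinning, a replicate term, mitochondrial genes left out, removal of the GC content and length trend (loess, span 0.4) and each library left out served as alternatives. Transcripts were tested with limma where FPKM reached 1 in at least 2 libraries. The text names all 10 clock genes, and genes of the fixed lists that were called or abundant. The members and lists were chosen with earlier results of these data known. Floors cover counting error only. Analyses ran in R 4.3.3 and Python 3.11.15.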

Additional observations from a re-analysis of the deposited data

How the results depend on the processing

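Of the 450 log2 fold changes of the 10 clock genes under 11 other settings and 4 left-out libraries per comparison, 376 kept their direction and their side of the threshold. Another 41, called in neither fit, changed sign under various settings and left-out libraries. The call was lost in 24 and gained in 3 with the direction kept. In 6 the sign changed with a call in at least 1 of the fits, all with the GC content and length trend removed; against dexamethasone libraries they were Per1 (-0.70), Clock (0.13), Nr1d2 (0.54) and Dbp (-0.30), and against control libraries Per1 (-1.21) and Dbp (-0.15); the cause was not tested.

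For dexamethasone against control, 7 genes were called. The count was 130 with DESeq2, 248 without a filter, 23 with at least 10 counts, 43 with a replicate block, 1 without mitochondrial genes, 3 after thinning, 18 with the GC content and length trend removed, and 182 at unadjusted p under 0.05 with a log2 fold change beyond 1.5. It ranged from 9 to 2200 with 1 library left out, with the spread of the lone library taken from the other group; the clock genes called ranged from 0 to 2 and the other clock genes from 0 to 5. DESeq2 called 1 other clock gene and the fit without a filter 2.

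For EPC-EV against dexamethasone libraries, the unadjusted threshold with log2 fold change beyond 1.5 gave 1922 genes, 2 clock genes and 2 other clock genes. With 1 library left out, 3250 to 4813 genes and 2 to 6 clock genes were called. Against control libraries that threshold gave 2793 genes, 2 clock genes and 3 other clock genes, and 2 to 5 clock genes were called with 1 library left out. Leaving out a library also leaves fewer samples. Replicate numbers share only a number: residuals of equal number correlated across genes with r from 0.00732 to 0.0619, and the fit with a replicate block left 0, 6 and 4 clock genes called. At this depth, a difference in Cry1, with 13 counts in 1 library, was the least precise.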
